A study of Mus musculus with 56 samples.

Results

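Visceral adipose tissue (VAT) of mice eating by day was compared with that of mice eating by night at the same position of the meal period. The comparison took the 4 libraries of daytime-restricted feeding (DRF) at zeitgeber time (ZT) 8 and the 4 libraries of nighttime-restricted feeding (NRF) at ZT20, 8 of the 56 libraries of the series. It was chosen by design and not by any measured value. ZT counts hours from lights-on in a 12 h light and 12 h dark cycle, so ZT8 fell in the light and ZT20 in the dark, 12 h apart. Regimen and light phase therefore changed together, and they cannot be told apart in this pair. All mice were 9-week-old C57BL/6J females, a standard inbred strain, kept on their regimen for 7 days. NRF, food at the usual active time of mice, was the reference. Each library held polyA RNA of the fat of 1 mouse, with 4 mice in each group. The hours of food access within the day or night are not given in the sources used here.

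The circadian clock of a cell is a feedback loop. The activators BMAL1 (gene Arntl), CLOCK and NPAS2 switch on genes through E-box elements, the products of the Per and Cry genes block them, and the repressors REV-ERBα and REV-ERBβ (Nr1d1 and Nr1d2) silence Arntl against the activating ROR proteins. Light reaches peripheral clocks through the brain, while food acts through insulin, nutrients and body temperature. Genes of fat synthesis follow insulin and the meal, heat shock genes follow heat and protein damage, and the RNA-binding proteins CIRBP and RBM3 are made at lower body temperature. Feeding position and light phase pull these inputs apart in DRF, and the pair compared here holds the first alike while the second is opposite.

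Sequences are shown for called genes of 3 lists described here, the clock, the heat shock genes and the chaperones of the endoplasmic reticulum (ER). They were cut from the RefSeq promoters of mouse build GRCm38.p6, upstream of the transcription start, and run 5′ to 3′ on the strand of the gene. Capitals mark the motif searched. The E-box CACGTG, which CLOCK and BMAL1 bind, stood 3 times before Ciart, a clock repressor gene (chr3:95882255-95882356, minus strand), and once before Cry1 (chr10:85185097-85185126, minus strand). The D-box TTATGTAA, bound by the DBP protein and its relatives, stood in 2 copies before Per3 (chr4:151044804-151044882, minus strand). The heat shock element, searched as 3 alternating GAA and TTC blocks set 2 bases apart, occurred as 2 overlapping matches before Hspe1, which encodes a mitochondrial chaperonin (chr1:55088047-55088088, plus strand).
Ciart: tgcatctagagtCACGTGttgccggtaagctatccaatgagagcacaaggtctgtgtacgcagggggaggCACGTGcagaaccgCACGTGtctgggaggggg
Cry1: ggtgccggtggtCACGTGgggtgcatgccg
Per3: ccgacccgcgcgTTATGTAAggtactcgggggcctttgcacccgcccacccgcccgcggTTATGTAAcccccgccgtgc
Hspe1: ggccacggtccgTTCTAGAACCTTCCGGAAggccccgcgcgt

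The ER stress element, CCAAT and CCACG set 9 bases apart, through which genes answer unfolded protein in the ER, was found before Hspa5 (chr2:34772013-34772055, plus strand), Dnajc3 (chr14:118937815-118937857, plus strand), Creld2 (chr15:88819508-88819550, plus strand, on the reverse strand of the promoter) and Hsp90b1 (chr10:86705521-86705668, minus strand, 2 copies in opposite directions). These encode chaperones, co-chaperones or a secreted partner of the ER.
Hspa5: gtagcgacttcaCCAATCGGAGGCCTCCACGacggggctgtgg
Dnajc3: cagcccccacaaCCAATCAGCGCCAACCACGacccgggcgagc
Creld2: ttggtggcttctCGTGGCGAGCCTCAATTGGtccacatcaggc
Hsp90b1: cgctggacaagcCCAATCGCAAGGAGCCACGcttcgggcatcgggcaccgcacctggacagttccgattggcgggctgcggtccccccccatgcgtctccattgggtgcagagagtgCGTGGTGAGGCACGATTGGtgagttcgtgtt

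The deposited values were converted to read counts scaled to library size (CPM). Differences are given as DRF ZT8 minus NRF ZT20 in log2(CPM + 1), with the standard error (SE) of the fit. Unless stated, the SE and p-values use 1 spread per gene shared by all 14 groups, not that of the 8 libraries alone. A positive difference means higher in the day-fed mice. The pseudocount of 1 understates changes of low genes. Recovered reads ranged from 31797538 to 40966835 among the 8 libraries. Adipocyte markers were present in each of the 8, with summed levels from 11289 to 34009 CPM. DRF ZT8 replicate 1 stood apart: the 10 uterine epithelium markers summed to 678 CPM there, against 22.4 to 27.0 in the other 3 DRF ZT8 libraries and 27.1 to 45.9 in the NRF ZT20 libraries. In the same library, smooth muscle markers summed to 1000 CPM (240 to 353 in the other 7) and adipocyte markers to the lowest value of all 56. DRF ZT0 replicate 4, outside this pair, held still more uterine epithelium RNA (7158 CPM). It entered the estimate of spread and the mean level that decided which genes were tested. Results are therefore also given without DRF ZT8 replicate 1. In bulk tissue, fewer cells of a type and less RNA per cell cannot be told apart.

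At the matched feeding position, 379 of 14303 genes passed the test (limma, Benjamini-Hochberg adjusted p under 0.05), which is 2.65% of the genes tested. Of these, 184 were higher (1.29%) and 195 lower (1.36%) in DRF ZT8. The difference reached 1 log2 unit in 27 higher and 24 lower genes, and the median size over the 379 was 0.60. Over all genes the median difference was -0.0072, which the scaling to effective library sizes holds near 0. The DRF and NRF libraries did not overlap for 312 of the 379, 143 higher and 169 lower, against 7.65% of all genes tested (3.57% higher, 4.08% lower). Against NRF mice at the same clock time, ZT8, the same 4 DRF libraries differed in 4324 genes (30.2%), 17.4% higher and 12.8% lower. The 2 comparisons share the DRF ZT8 libraries and are set side by side only.

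The number of calls depended on the libraries used. Without DRF ZT8 replicate 1, limma called 246 genes (1.72%), 120 higher (0.839%) and 126 lower (0.881%), 155 of them among the 379. With the 8 libraries alone, where the spread was estimated from these mice only, 25 genes passed (0.175%), 9 higher (0.0629%) and 16 lower (0.112%), all among the 379, and 1414 had an unadjusted p under 0.05. When DRF ZT8 replicate 1 was also left out, 88 passed (0.615%), 38 higher (0.266%) and 50 lower (0.35%), a fit chosen after seeing the data. Leaving out DRF ZT8 replicate 3 gave 546 higher and 413 lower genes. Leaving out NRF ZT20 replicates 1, 2, 3 or 4 gave 77, 97, 82 or 119 higher genes, and without the first 3 of these the lower genes numbered 106, 118 and 96. With total recovered reads as the scale, the split moved to 283 higher and 123 lower, and on the deposited values it was 110 and 177.

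The 3 largest positive differences of all genes tested were clock genes. Nr1d1, encoding REV-ERBα (chr11:98767932-98775333, GRCm38), was at 46.3, 75.7, 78.1 and 75.5 CPM in DRF ZT8 replicates 1 to 4 and at 4.41, 4.59, 4.82 and 4.11 CPM in NRF ZT20. The groups were far apart, and the means differed 15.4-fold, by 3.64 ± 0.23 log2 units (SE, n = 4 per group; limma adjusted p = 3.73e-16). Nr1d2, encoding its partner REV-ERBβ (chr14:18204054-18239127), was at 74.8, 62.6, 60.2 and 58.9 CPM under DRF and at 9.73, 5.79, 7.79 and 7.62 under NRF. Its difference was 2.91 ± 0.19 (limma adjusted p = 1.67e-15). Dbp, an output activator driven by E-boxes (chr7:45705088-45710203), was at 48.1, 57.7, 63.5 and 61.5 CPM against 8.5, 6.09, 11.5 and 7.17. It was higher by 2.68 ± 0.27 (limma adjusted p = 3.33e-09). All DRF values lay above all NRF values for each of the 3 genes. Nr1d1 overlaps Thra on the other strand and Dbp overlaps Sphk2, and the strand setting of the counting is not given; Thra and Sphk2 themselves differed by 0.06 and -0.00 log2 units.

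Cry1, a core repressor of CLOCK and BMAL1 (chr10:85131700-85185064), went the other way. It stood at 18.8, 17.1, 18.8 and 25.9 CPM in DRF ZT8 and at 54.6, 65.3, 52.9 and 48.0 CPM in NRF ZT20, with no overlap. The difference was -1.42 ± 0.18 (limma adjusted p = 1.65e-06). Nr1d1, Nr1d2, Dbp and Cry1 were also called in the 8 libraries alone and without any 1 of the 8.

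The lists held 21 clock genes in all, and 7 passed, where 2.65% of all genes did. Of the 10 repressors, 4 were higher and 2 lower. Per3 was higher by 0.84 ± 0.21 (28.3 to 46.8 against 17.2 to 24.4 CPM) and Ciart by 0.85 ± 0.22 (1.60 to 3.06 against 0.686 to 0.835 CPM), the genes whose promoters held the D-boxes and E-boxes shown above. Cry2, the relative of Cry1, was lower by 0.54 on the log2 scale (48.4 to 82.8 against 89.1 to 113 CPM). These 3 lost their calls without DRF ZT8 replicate 1 (limma adjusted p = 0.0929, 0.0541 and 0.0742), at differences of 0.72, 0.86 and -0.39. Per3 and Ciart also lost them without NRF ZT20 replicates 2, 3 or 4, and Ciart without DRF ZT8 replicate 3 or NRF ZT20 replicate 1. Per1 (0.76 ± 0.26, adjusted p = 0.101 in limma) and Per2 (-0.97 ± 0.30, adjusted p = 0.0654 in limma) did not pass, though their groups did not overlap. Bhlhe40 and Bhlhe41 overlapped between groups.

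Of the 4 activators and RORs given here, 0 passed in limma, while all 4 had an unadjusted p under 0.05. Arntl stood at 15.1, 22.1, 23.0 and 22.9 CPM against 30.9, 36.3, 33.8 and 36.6, without overlap, but its difference of -0.72 ± 0.22 missed the threshold (limma adjusted p = 0.0565). Clock (-0.33) and Npas2 (-0.81) were likewise below the NRF range in every DRF library and missed the threshold. Rora was at 0.30 with overlapping groups. Of the 7 output genes, Dbp alone passed. Nfil3, a repressor that competes with DBP at D-boxes, was at -0.82 ± 0.26 and Tef, a relative of Dbp, at 0.52 ± 0.19, and neither passed (limma adjusted p = 0.0714 and 0.135). Hlf, Usp2, Wee1 and Nampt overlapped between the groups.

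**Figure D1:**
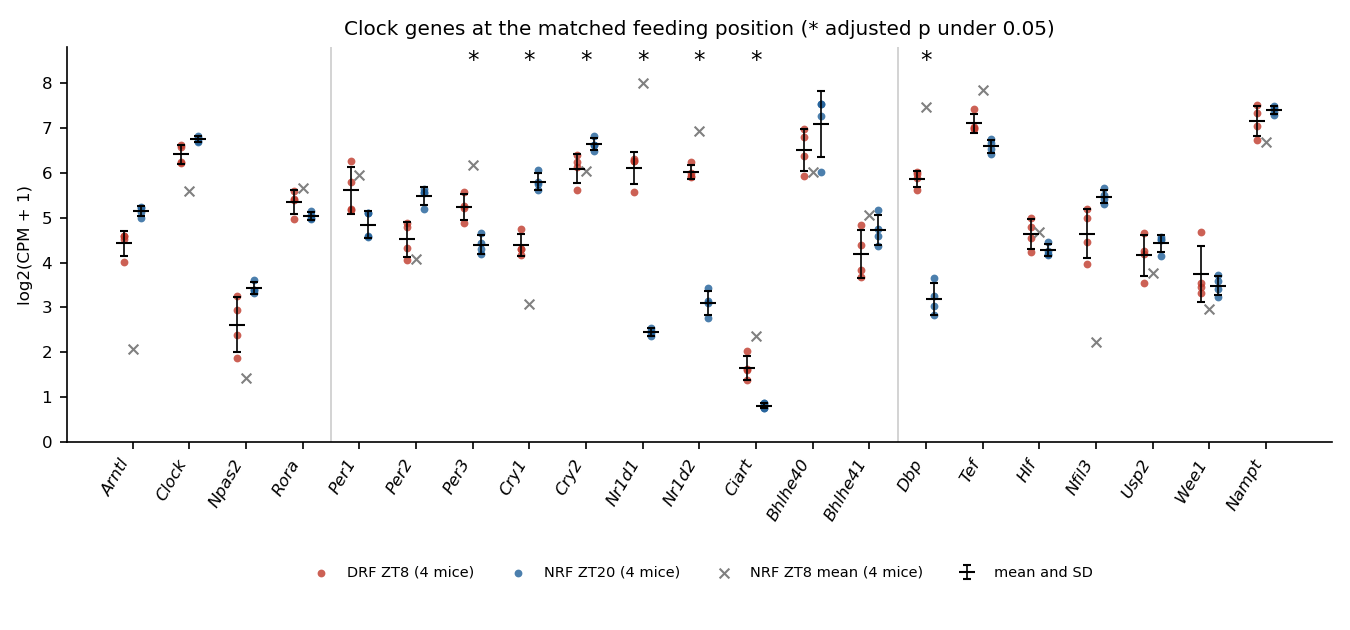
Levels of the 21 clock genes, with log2(CPM + 1) on the y axis and 1 point per mouse for DRF ZT8 and NRF ZT20, bars giving the mean and SD, crosses the NRF ZT8 mean and asterisks an adjusted p under 0.05; sections hold activators and RORs, repressors, and outputs. The 4 DRF points of Nr1d1, Nr1d2 and Dbp sit above all NRF ZT20 points, and those of Cry1 sit below, while the crosses lie further out for these 4 genes.

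The day-fed levels were not those of night-fed mice by day either. Mean Nr1d1 was 68.9 CPM at DRF ZT8, between 4.48 at NRF ZT20 and 254 at NRF ZT8. Dbp, at 57.7 CPM, lay between 8.33 and 178, and Cry1, at 20.1 CPM, lay between 55.2 and 7.59. The 3 genes were thus intermediate. Against NRF ZT8 their differences were -1.89, -1.60 and 1.30, of the opposite sign to those against NRF ZT20.

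The opposite pair was set beside the fed one. DRF ZT20 minus NRF ZT8 compares both regimens in the fasting period with light and dark exchanged, and it shares no library with the fed pair. There 2761 genes passed (19.3%), 1669 higher (11.7%) and 1092 lower (7.63%). The differences were -2.46 for Nr1d1, -2.40 for Dbp, -1.54 for Nr1d2 and -1.64 for Ciart, against 1.44 for Cry1 and 1.99 for Arntl, all past the threshold in limma. Of the 21 clock genes, 16 had opposite signs in the 2 pairs and 5 the same sign (Bhlhe40, Bhlhe41, Rora, Usp2 and Wee1). None of these 5 passed in the fed pair, while Bhlhe41 (-1.71) and Wee1 (0.86) passed in the fasted one. In limma, 2321 genes (16.2%) had a difference that itself differed between the fed and the fasted pair, 926 upward (6.47%) and 1395 downward (9.75%). This quantity contains the fed difference and is no independent check of it. The difference of differences was 6.10 ± 0.32 for Nr1d1, 5.08 for Dbp, 4.45 for Nr1d2 and -2.85 for Cry1 (largest limma adjusted p of the 4 = 3.52e-11). It was -2.71 for Arntl (adjusted p = 3.02e-08 in limma), which had missed the threshold in the fed pair alone. For Nr1d1, Dbp and Cry1 the 2 NRF groups lay further apart than the 2 DRF groups. Mean log2(CPM + 1) of Nr1d1 was 7.99 at NRF ZT8 and 2.45 at NRF ZT20, but 6.10 at DRF ZT8 and 5.53 at DRF ZT20. In the same order, the means were 7.46, 3.19, 5.87 and 5.06 for Dbp and 3.09, 5.80, 4.39 and 4.52 for Cry1.

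Of the 379 genes called in the fed pair, 113 (29.8%) were also called in the fasted pair, where 19.3% of all genes were. In 93 of the 113 the sign was opposite, and in 20 it was the same. Over all 379, called or not in the fasted pair, 264 had the opposite sign and 115 the same. The share of opposite signs over all genes tested was not counted, so these shares and that of the clock genes are descriptions. The 113 were 4.09% of the fasted pair's calls.

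**Figure D2:**
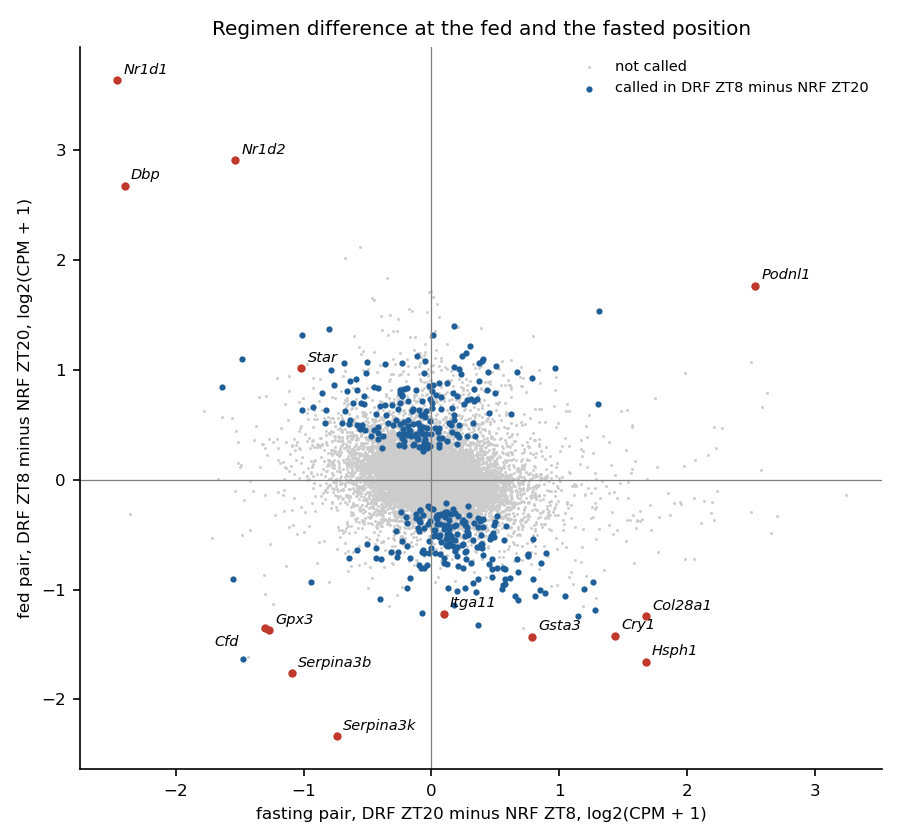
Each point is 1 of 14303 genes, with DRF minus NRF in log2(CPM + 1) at the fasted position on the x axis and at the fed position on the y axis; blue marks the 379 genes called at the fed position and red 14 labelled genes. Nr1d1, Nr1d2, Dbp and Star lie at upper left and Cry1, Hsph1 and Col28a1 at lower right, with opposite signs in the 2 pairs, while Podnl1, Cfd, Gpx3 and the Serpina3 genes have the same sign in both.

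Heat shock genes were lower in the day-fed mice. Of the 14 in the list, 8 fell, where 1.36% of all genes did, and none rose. The median difference was -0.57 against -0.0072 over all genes, and all 14 differences were below 0. The list was chosen with earlier results of these data known, so its shares are descriptions. Without DRF ZT8 replicate 1, 7 fell and the median was -0.57. Hsph1, a nucleotide exchange factor of the HSP70 chaperones (chr5:149614287-149636376), was at 54.4, 39.0, 69.1 and 59.5 CPM in DRF ZT8 and at 181, 187, 175 and 152 CPM in NRF ZT20. The DRF libraries were all below the NRF libraries, at a difference of -1.65 ± 0.30 (limma adjusted p = 0.000927). Hspa8, the constitutive HSP70, stood at 1086, 1194, 1548 and 1523 CPM against 2640, 2703, 2860 and 2515, a difference of -1.02 ± 0.20 (limma adjusted p = 0.00213). Hsp90aa1, the inducible cytosolic HSP90, stood at 301, 273, 292 and 240 CPM against 487, 624, 543 and 570, a mean 2.01-fold higher in NRF ZT20 (limma adjusted p = 0.000927). Its DRF values were all under its NRF values.

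The other calls of the heat shock list, most of them named after their values were seen, were Chordc1, an HSP90 co-chaperone (-1.09), Hspb1, a small heat shock protein (-0.91), Dnaja1, an HSP70 partner (-0.81), Hspe1 (-0.60) and Hsp90ab1, the constitutive HSP90 (-0.55). Hspe1 lost its call without DRF ZT8 replicate 1 (limma adjusted p = 0.11). Hspa4l, an HSP70 relative outside the list, was among the 12 largest falls, at 30.4 to 44.8 against 77.8 to 105 CPM (-1.19 ± 0.18; limma adjusted p = 4.74e-05). The stress-inducible Hspa1a and Hspa1b, whose near-identical copies could share reads, were at -0.07 and -0.14 and did not pass. Bag3, an HSP70 co-factor, was at -0.01. Hsph1 and Hsp90aa1 were the members called in the 8 libraries alone. Ahsa1 (-0.67) and Stip1 (-0.69), co-chaperones of HSP90 that were named after their values were seen, were called there too.

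The 2 cold-inducible genes rose. Rbm3 (chrX:8138975-8145880) was at 139, 112, 129 and 104 CPM in DRF ZT8 and at 71.9, 74.7, 69.7 and 73.9 in NRF ZT20, with a difference of 0.72 ± 0.13 (limma adjusted p = 0.000929). Cirbp was at 47.3, 44.5, 28.6 and 28.5 CPM against 16.2, 17.1, 21.9 and 24, with a difference of 0.86 ± 0.21 (limma adjusted p = 0.0128). Neither gene's groups overlapped. Cirbp lost its call without DRF ZT8 replicate 1 (0.73, adjusted p = 0.0678 in limma) and without NRF ZT20 replicates 1 or 2, while Rbm3 was called without any 1 of the 8 libraries and in the 8 alone.

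Some ER chaperones were lower as well. Of 17 members 5 fell (1.36% of all genes did) and none rose, with a median of -0.37. This list, too, was chosen with earlier results of these data known, so its shares are descriptions. The groups did not overlap for 12 members, against 7.65% of all genes. Hspa5, the main ER chaperone BiP (chr2:34771970-34777547), was at 304, 385, 456 and 366 CPM under DRF and at 509, 600, 551 and 531 under NRF, a difference of -0.55 ± 0.12 (limma adjusted p = 0.00496). Creld2 (-0.69), Manf, a secreted protein of the ER stress response (-0.58), Dnajc3, a BiP co-chaperone (-0.43), and Hsp90b1, the HSP90 of the ER (-0.37), were the other 4. Hsp90b1 lost its call without DRF ZT8 replicate 1 (adjusted p = 0.082 in limma). Xbp1, the transcription factor that drives this response, was at -0.50 and missed the threshold (limma adjusted p = 0.0594). With the 8 libraries alone no member of the list passed, and 3 did when DRF ZT8 replicate 1 was also left out.

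In the fasted pair the called members had the opposite sign. Hsph1 was higher by 1.68, Hsp90aa1 by 0.85, Hspa4l by 1.28 and Hspa5 by 0.57 in DRF ZT20 than in NRF ZT8 (largest limma adjusted p of the 4 = 0.00126). There 7 of 14 heat shock genes and 7 of 17 ER chaperones rose, where 11.7% of all genes did, and none fell. The difference of differences was -3.33 for Hsph1 and -1.85 for Hsp90aa1, and 11 members of each list passed that test, where 16.2% of all genes did. Cirbp was at -0.76 in the fasted pair and passed, while Rbm3 was at -0.07 and did not pass.

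**Figure D3:**
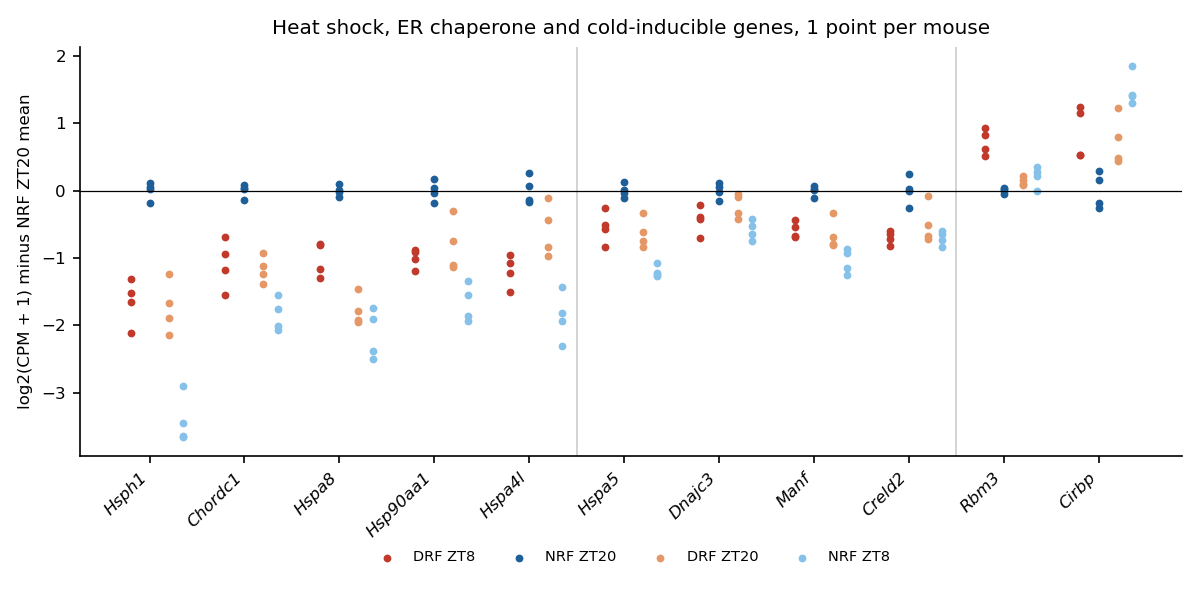
Levels of 5 heat shock or HSP70-family genes, 4 ER chaperone genes and 2 cold-inducible genes, as log2(CPM + 1) minus the NRF ZT20 mean on the y axis, with 1 point per mouse in 4 groups. The DRF ZT8 points lie below the NRF ZT20 points for the 9 chaperone genes and above them for Rbm3 and Cirbp.

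The promoter motifs were counted over the lists. Of 32851 RefSeq promoter windows, each from upstream to just past a start, 7.15% held the E-box, 1.06% a D-box (TTATGTAA or TTACGTAA), 0.603% the heat shock element and 0.119% the ER stress element, on either strand. Overlapping matches were counted separately. Of the 17 ER chaperone genes, 15 had a promoter in the table and 7 of these held the ER stress element, namely Hspa5, Hsp90b1, Pdia6, Calr, Canx, Dnajc3 and Creld2. Among the 4 fallen members with a promoter, all 4 held it. Of 11 heat shock genes with a promoter, Hsph1, Hspe1, Hspd1 and Chordc1 held the heat shock element, and 3 of these 4 fell. Hspe1 and Hspd1 lie on opposite strands and share the same matched bases, so their matches are not separate. Hspe1 was called and Hspd1 was not. Of 8 clock repressors with a promoter, Per1, Cry1, Ciart and Bhlhe41 held the E-box. The windows of Nr1d1, Nr1d2 and Dbp held none of the motifs searched. Bases further upstream or further inside the genes were not searched, so this does not show that these genes lack the motifs. The ROR and REV-ERB element (AANT followed by AGGTCA or GGGTCA), present in 0.435% of all windows, was found for Arntl, after its start.

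Lists tied to the meal gave no calls or few, where 2.65% of all genes were called. In lists of 8 to 20 genes that share gives few calls or none, so the counts alone do not set these lists apart. In cholesterol synthesis, 0 of 20 genes passed, with a median of -0.15 and 17 differences below 0. In de novo lipogenesis, the making of fatty acids from sugar, 0 of 15 passed, with a median of -0.33 and 14 differences below 0. There were also no calls in sterol sensing (0 of 10), triglyceride synthesis (0 of 8), lipolysis (0 of 10) and insulin and FOXO response (0 of 13). Glucose, glycogen and NADPH supply (0 of 13) and thermogenesis (0 of 9) had none either. The glucose, glycogen and NADPH list had a median of -0.42, with 12 of 13 differences below 0. Most members lying below 0 was thus not confined to the chaperone lists. Against NRF ZT8, with the same DRF libraries, 18 cholesterol genes and 11 lipogenic genes were higher, where 17.4% of all genes were. The medians were 1.64 and 1.62. In the fasted pair, 12 and 11 were higher, where 11.7% of all genes were. The NRF ZT8 mice, used in both, were uneven. Acly was at 1380, 154, 6511 and 321 CPM in them and Fasn at 16887, 971, 32188 and 7125 CPM.

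A difference that misses the threshold does not show equal levels. The intervals say how large it could be, given 1 spread per gene shared by all 14 groups. Intervals from the spread of the pair alone are not given here. Acly, which makes cytosolic acetyl-CoA, was at 5006, 7781, 9288 and 12212 CPM in DRF ZT8 and at 11194, 11832, 11876 and 10678 in NRF ZT20. The DRF libraries were more spread (log2 SD 0.54) than the NRF ZT20 libraries (0.07), and the SD was 2.39 in NRF ZT8, outside the pair. With all groups in the spread, the 95% interval of the difference ran from -2.05 to 1.09. Fasn, the fatty acid synthase, was at 14153 to 35535 against 23810 to 31259 CPM (-1.39 to 0.94). Its log2 SD was 2.20 in NRF ZT8, against 0.55 in DRF ZT8 and 0.17 in NRF ZT20. For Hmgcs1, an early enzyme of cholesterol synthesis, the levels were 161 to 306 against 189 to 274 CPM, and the interval was tighter, -0.37 to 0.49. Lipe, the hormone-sensitive lipase, and Pnpla2, the first lipase of fat stores, had intervals of -0.39 to 0.37 and -0.42 to 0.33. Irs2, an insulin receptor substrate repressed by insulin, was at 11.2 to 17.7 against 11.8 to 20.2 CPM, while it stood at 58.5 and 76.9 CPM on average in the fasting groups DRF ZT20 and NRF ZT8. For Slc2a4, the insulin-responsive glucose transporter, the interval was -1.25 to 0.03. The median half-width over lipogenesis was 0.90, over cholesterol synthesis 0.64 and over all genes 0.27.

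DRF ZT8 replicate 1, the library with uterine epithelium RNA, pulled several of these lists down. Without it the medians were -0.10 for lipogenesis, -0.013 for cholesterol synthesis, -0.14 for glucose, glycogen and NADPH supply and 0.25 for lipolysis. The counts in these lists stayed at 0. The part of the uterine RNA in these values was not tested. Fatty acid oxidation had 1 call of 18, where 2.65% of all genes were called. It was Ucp3 (-0.94 ± 0.27, limma adjusted p = 0.044). That call was lost without DRF ZT8 replicate 1 (at a difference of -0.77), DRF ZT8 replicate 2 or any NRF ZT20 library. Angptl4, an inhibitor of lipoprotein lipase named after its value was seen, was at -0.97 and missed the threshold (limma adjusted p = 0.087).

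**Figure D4:**
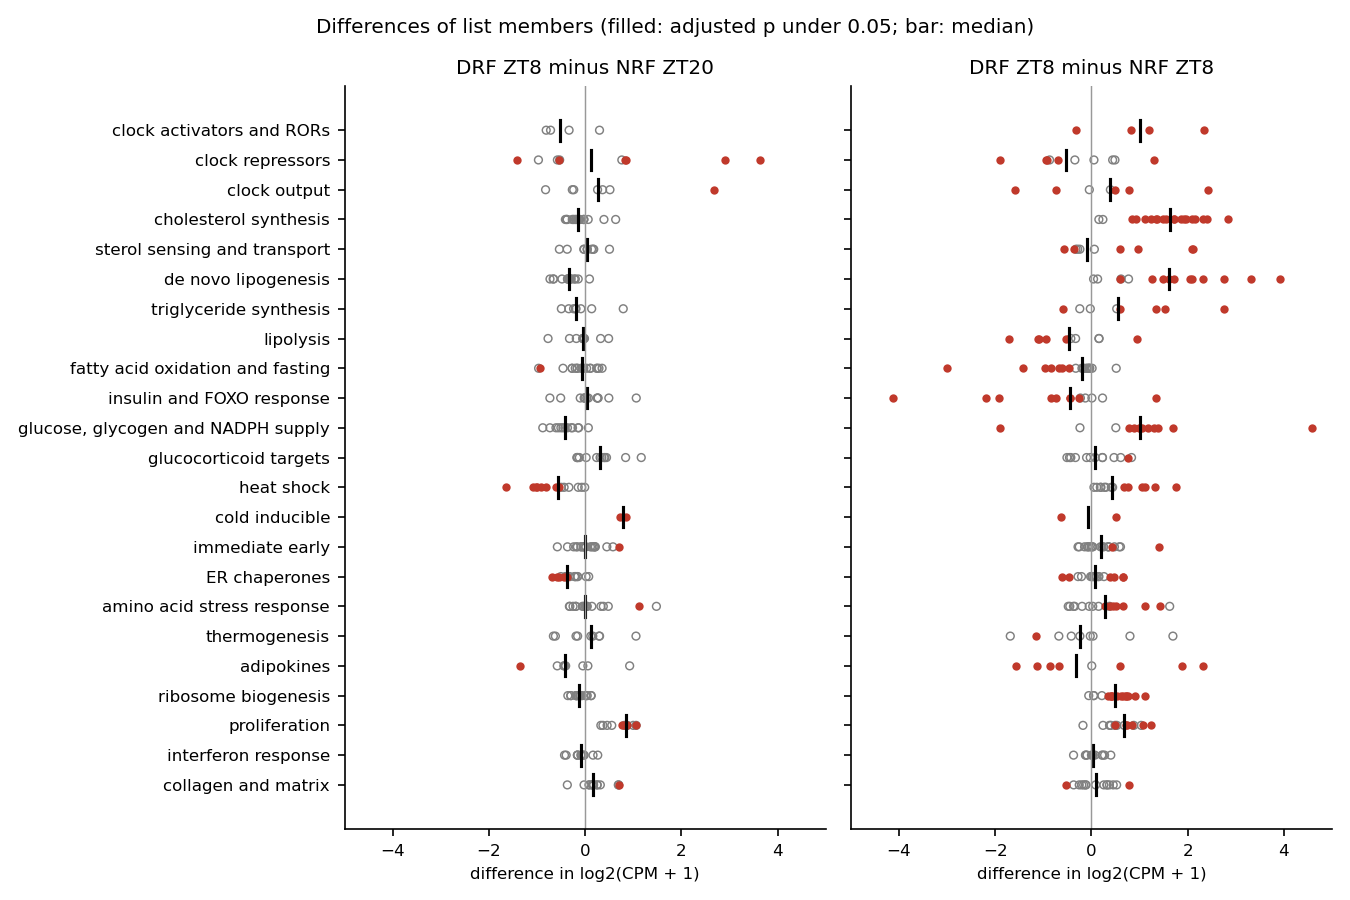
Differences of the members of 23 gene lists in log2(CPM + 1) on the x axis, left against NRF ZT20 (matched feeding) and right against NRF ZT8 (matched clock time), with filled points for an adjusted p under 0.05 and bars for medians. On the left the filled points are found mainly in the clock, heat shock, cold-inducible, ER chaperone and proliferation lists, and on the right cholesterol synthesis and lipogenesis have medians of 1.64 and 1.62.

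The NRF time that lay nearest to DRF ZT8 differed between lists. The measure was the root mean square difference in log2(CPM + 1) between the DRF ZT8 libraries and the mean of each of the 7 NRF time points, given as a description. For cholesterol synthesis it was 0.42 at NRF ZT24, 0.46 at ZT20 and 1.71 at ZT8. For lipogenesis it was 0.46, 0.53 and 1.99. For cholesterol synthesis DRF ZT8 replicates 1 to 4 were nearest to ZT16, ZT0, ZT20 and ZT20, and none to ZT24. For lipogenesis they were nearest to ZT0, ZT24, ZT20 and ZT20. For the clock lists no time was near: the value was 1.04 at ZT16, the lowest, 1.17 at ZT8, 1.36 at ZT4, 1.38 at ZT20, 1.45 at ZT0 and ZT24 and 1.57 at ZT12. For heat shock genes the nearest was ZT0, at 0.35, against 0.80 at ZT20 and 0.81 at ZT8. Over all 14303 genes the value was 0.42 at ZT0, ZT20 and ZT24 and 0.57 at ZT8. The nearest time was unchanged for these 5 sets without DRF ZT8 replicate 1, with median centring and with the mean absolute difference.

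**Figure D5:**
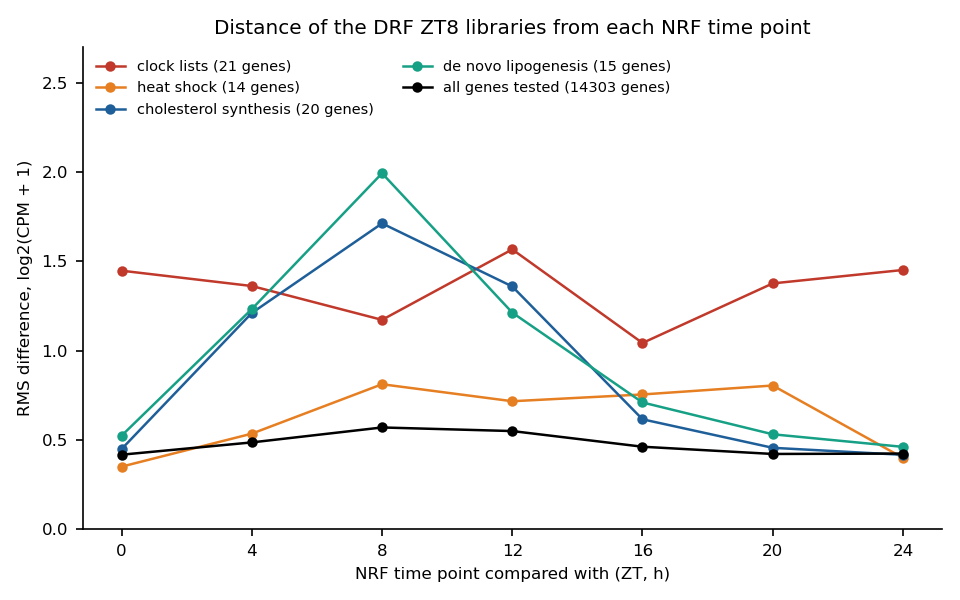
Root mean square difference in log2(CPM + 1), y axis, between the 4 DRF ZT8 libraries and the mean of each NRF time point, x axis in h, for 4 gene sets and all genes tested. The cholesterol and lipogenesis lines are lowest at ZT24 and highest at ZT8, and the clock line stays above 1.0 at every time.

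A few genes were called with the same sign in the fed and the fasted pair. Podnl1, a matrix protein related to podocan (chr8:84125989-84132527), was at 11.6, 11.5, 14 and 30.9 CPM in DRF ZT8 and at 2.43, 5.41, 3.56 and 4.59 in NRF ZT20. It was higher by 1.77 ± 0.39 (limma adjusted p = 0.00628), and by 2.54 in the fasted pair, and the difference of differences was not called (adjusted p = 0.335 in limma). Cfd, encoding the adipokine adipsin (chr10:79890853-79892655), was at 2451, 7394, 4601 and 5946 CPM against 13623, 10967, 12844 and 10791. The difference was -1.35 ± 0.27 at the fed and -1.31 at the fasted position (limma adjusted p = 0.00344 and 0.00097). Its exon length could not be tested by the read recovery, so its level carries that limit. Gpx3, a secreted glutathione peroxidase, fell by 1.37 and 1.27. With the 8 libraries alone Podnl1, Cfd and Gpx3 did not pass (limma adjusted p = 0.107, 0.364 and 0.266). The adipocyte markers as a list had a median of -0.23 and only Cfd among 8 passed, and Adipoq, adiponectin, was at -0.44 (limma adjusted p = 0.234).

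Serpina3k and Serpina3b, protease inhibitors of a family of near-identical copies, had the largest falls. Serpina3k was at 0.789, 2.66, 2.54 and 2.48 CPM in DRF ZT8 and at 21.6, 18.6, 15.0 and 6.36 in NRF ZT20 (-2.33 ± 0.53; limma adjusted p = 0.00814). Serpina3b was at 2.27 to 5.36 against 9.54 to 19.9 CPM (-1.76 ± 0.29). Reads may be split among the copies, so the values of single members are uncertain. In the fasted pair Serpina3b fell by 1.09 and Serpina3k was at -0.74, which did not pass. With the 8 libraries alone neither gene passed in the fed pair (limma adjusted p = 0.0601 for Serpina3k and 0.0548 for Serpina3b).

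Other large falls were enzymes and matrix genes. Gsta3, a glutathione transferase, was at 72.7, 132, 261 and 150 CPM against 365, 421, 424 and 309 (-1.43 ± 0.24). Fmo1, a flavin monooxygenase, was at -1.33 ± 0.19, and Aldh3b2, an aldehyde dehydrogenase, at -1.14 ± 0.21. Itga11, a collagen receptor subunit, was at 8.16, 10.6, 8.14 and 11.9 CPM against 21.3, 21.8, 26.5 and 25.6 (-1.22 ± 0.20; limma adjusted p = 0.000148). Col28a1, a collagen gene, was at 3.78, 7.66, 5.66 and 5.44 CPM against 17.3, 14, 14.4 and 12. Its difference was -1.24 ± 0.22 at the fed position and 1.68 at the fasted one, and the difference of differences was -2.92 (adjusted p = 6.66e-09 in limma). Pi16, a marker of fat progenitors, fell by 0.99 and was the only one of 6 progenitor markers called. With the 8 libraries alone Itga11 and Col28a1 passed in limma. Gsta3, Fmo1, Aldh3b2 and Pi16 did not (limma adjusted p = 0.212, 0.0924, 0.256 and 0.21).

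Star, which brings cholesterol into mitochondria for steroid synthesis, rose from 6.45, 7.41, 6.82 and 6.43 CPM in NRF ZT20 to 12.2, 15.5, 15.1 and 16.5 in DRF ZT8 (1.02 ± 0.15; limma adjusted p = 3.12e-05). In the fasted pair it was lower, at -1.02. Star is also 1 of 4 ovary markers, whose sum was 43.9 CPM in DRF ZT8 replicate 1, 16.6 to 17.9 in the other 3 and 7.45 to 8.76 in NRF ZT20. Inha, the other ovary marker with enough reads, was at 0.24 and did not pass, and the part of ovary RNA in the Star value was not tested. Without DRF ZT8 replicate 1 the Star difference was 1.10. The remaining genes of the 12 largest rises were Cybrd1, an iron reductase (1.10), Cdc25b, a cell cycle phosphatase (1.07), Emp1, a membrane protein (1.05), Lrrc4c, an adhesion protein (1.03), Gramd1b, a sterol carrier (0.98), Ccne1, cyclin E (0.92), and Pycr1, an enzyme of proline synthesis (0.90). All of these missed the threshold in limma with the 8 libraries alone.

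Without DRF ZT8 replicate 1, 224 of the 379 genes lost their call and 91 others gained one, leaving 120 higher and 126 lower. Fewer calls remained without NRF ZT20 replicate 1 (77 higher, 106 lower), 2 (97 and 118) or 3 (82 and 96). Leaving out both DRF ZT8 replicate 1 and DRF ZT0 replicate 4 gave 172 higher and 172 lower. How much of the loss came from fewer libraries was not tested. The largest losses, with the difference before and after leaving out DRF ZT8 replicate 1, were Ifi27l2a (-1.63 to -1.28), D430019H16Rik (1.40 to 1.00), Tmem132c (1.37 to 0.50), Rasd2 (1.32 to 0.57) and Uhrf1 (1.22 to 0.58). Tmem132c was at 32.6 CPM in that library and at 1.45 to 2.59 in the other 3. In the proliferation list, 4 of 15 genes were higher, where 1.29% of all genes were, with a median of 0.85. They were Mcm2, Mcm3, Mcm5 and Mcm6, subunits of the replicative helicase. Mcm3 was at 42.6 CPM in DRF ZT8 replicate 1 and at 16.8, 10.4 and 16.1 in the others, against 7.60 to 11.3 in NRF ZT20, so the groups overlapped. Without that library 0 of 15 passed and the median was 0.29, without NRF ZT20 replicate 3 it was also 0, and without DRF ZT8 replicate 3 it was 13.

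Single calls came from other lists, where 2.65% of all genes were called. Zfp36, which destabilises inflammatory mRNAs, was the only immediate early gene of 20 called (0.70 ± 0.19), with overlapping groups, at 20.3 CPM in DRF ZT8 replicate 1 and 40.4 to 53.8 in the others against 22.2 to 25.2. Its call was lost when any 1 library but DRF ZT8 replicate 1 was left out. Slc7a5, an amino acid transporter, rose by 1.13, at 28.7 CPM in DRF ZT8 replicate 1 and 7.19 to 8.32 in the others against 3.83 to 5.11, and Col6a1, a collagen gene (0.70), passed by little. Each lost the call without DRF ZT8 replicate 1, at differences of 0.69 and 0.59, and Col6a1 also without DRF ZT8 replicate 2 or any NRF ZT20 library. Of 13 glucocorticoid targets 0 passed with all 8 libraries and 3 without DRF ZT8 replicate 1. Ddit4, a stress-induced inhibitor of mTOR signalling, was among them, at 18.2, 36.0, 41.2 and 43.1 CPM against 12.2, 14.1, 11.6 and 19.8 (1.17, and 1.44 without that library). Fkbp5, a classical glucocorticoid target, was at -0.16, with a 95% interval of -0.87 to 0.55. In ribosome biogenesis, 0 of 16 passed.

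The 2 other pairs with the same offset differed in how many genes they called. DRF ZT4 minus NRF ZT16 had 3707 calls (25.9%, of which 15.0% higher and 10.9% lower) and DRF ZT12 minus NRF ZT24 had 482 (3.37%, of which 1.92% higher and 1.45% lower), against 379 for the pair at ZT8 and ZT20. Nr1d1 was higher under DRF in all 3, by 1.57, 3.64 and 2.28 in order of time. Dbp was at -1.24, 2.68 and 2.97. Cry1 was at -0.13, -1.42 and -0.80, of which the first did not pass. Cfd was at -1.10, -1.35 and -1.21 and Podnl1 at 2.84, 1.77 and 2.27, all called in limma. Hsph1 was called at ZT8 and ZT20 alone, at -0.34, -1.65 and -0.10.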

How the data were processed

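RNA of VAT was sequenced as paired 150-base reads from polyA libraries. The processing notes name HISAT2 2.0.5, featureCounts 1.5.0-p3 and mm10. The authors deposited 1 score per gene and library, named TPM, for 25939 Ensembl genes. By its values this score is log2(CPM + 1) divided by gene length and rescaled. Reads were recovered from the steps between low values. Of 1424971 values tested (10000 reads or fewer), 99.992% came out whole, to a tolerance of 0.02 reads. Exon lengths came from the GENCODE annotation for 25041 genes and from the values for 881. For 16 genes, Cfd, Fasn and Acaca among them, reads were too many to test the length. Scd1 was unresolved. CPM kept the effective library sizes that the deposited values imply. Recovered reads were 31144102 to 41246347 per library. All columns were mapped to a sample.

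Genes with a mean CPM of at least 1 over all 56 libraries (14303) were fitted in limma 3.58.1 (R 4.3.3), with 1 mean per regimen and time point, an intensity trend and Benjamini-Hochberg adjustment at 0.05. In simulated data for this comparison, 197 of 200 genes changed 2-fold were found among 14303, with 8 others called. The simulation gave every gene and group the same extra spread between libraries and held no library unlike the rest. It therefore does not give the power of the comparison in these mice. Sums, intervals and distances used Python 3.11.15 with pandas 2.3.3, numpy 2.4.6 and scipy 1.17.1.

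The members and lists were chosen with earlier results of these data known. Some genes are left out of the lists and not reported here. Named are all genes of the 3 clock lists and, for other lists, up to 4 called members per direction and members that show a list was not called. The 12 largest rises and falls are also named, among protein-coding genes with a mean CPM of at least 2 that were called, did not overlap, and kept the call without DRF ZT8 replicate 1. The 5 of these with the largest difference of differences, and the 5 largest calls lost without that library, complete the rule; genes named beyond it are marked in the text or belong to the heat shock, ER and marker lists. Alternatives covered the libraries in the fit, filter, pseudocount, scaling, deposited values, voom, a block for the replicate number, and leaving out single libraries. A count model was not run, as the deposited unit is not counts. The fit of the 8 libraries without DRF ZT8 replicate 1 was added after seeing the data. Unless the 8 libraries alone or the libraries compared are named, p-values rest on 1 spread between mice per gene, shared by all 14 groups.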

Additional observations from a re-analysis of the deposited data

Results flagged for a closer look

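The DRF minus NRF difference was tested for being unlike at the fed (DRF ZT8 and NRF ZT20) and the fasted (DRF ZT20 and NRF ZT8) position, and 51 of 83 named genes passed in limma (adjusted p under 0.05). Some of the 83 were named for the size of this quantity or of the fed difference that enters it, so their share is a description. Fed minus fasted, in log2 units, clock genes were at 6.10 (Nr1d1), 5.08 (Dbp), 4.45 (Nr1d2), 2.49 (Ciart), 1.29 (Hlf), 1.26 (Per3), 1.12 (Per1), 1.09 (Tef), -0.66 (Cry2), -1.08 (Clock), -1.14 (Nampt), -1.53 (Per2), -1.65 (Npas2), -2.17 (Nfil3), -2.71 (Arntl) and -2.85 (Cry1). Chaperone and cold-inducible genes were at 1.62 (Cirbp), 0.79 (Rbm3), -0.65 (Dnajb1), -0.79 (Dnajc3), -0.90 (Creld2), -0.98 (Manf), -1.12 (Hspa5), -1.37 (Hspa8), -1.77 (Chordc1), -1.85 (Hsp90aa1), -2.47 (Hspa4l) and -3.33 (Hsph1). Metabolic genes were at -3.14 (Acly), -1.98 (Lss), -1.92 (Acaca), -1.49 (Slc2a4), -1.26 (Ucp3), -2.22 (Fkbp5) and 1.62 (Ddit4). The others were 2.59 (Cybrd1), 2.33 (Rasd2), 2.18 (Tmem132c), 2.04 (Star), 1.75 (Cdc25b), 1.53 (Pycr1), 1.42 (Emp1), 0.94 (Zfp36), 0.85 (Mcm3), 0.85 (Lrrc4c), -1.31 (Aldh3b2), -1.32 (Itga11), -1.54 (Pi16), -1.69 (Fmo1), -2.22 (Gsta3) and -2.92 (Col28a1).

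In 15 of 166 groups of 4 mice, 1 library stood far from the rest by Dixon's ratio of gap to range at the 95% level, where chance gives about 1 in 20 for unselected groups. These groups were not unselected, since some genes were named for losing their call without DRF ZT8 replicate 1, and 11 of the 15 were that library. DRF ZT8 replicate 1 was the library for Ifi27l2a (0.94), Nr1d1 (0.935), Serpina3k (0.928), Arntl (0.907), Slc7a5 (0.899), Adipoq (0.895), Pnpla2 (0.877), Rasd2 (0.856), Tmem132c (0.854), Irs2 (0.848) and Wee1 (0.838). DRF ZT8 replicate 3 was high for Tef (0.918). NRF ZT20 replicate 4 was low for Fkbp5 (0.842) and Usp2 (0.836), and NRF ZT20 replicate 2 was high for Lss (0.831).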

How the results depend on the processing

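No named gene changed sign past the threshold under any alternative. Of the 50 named genes called, 11 kept the call in every alternative except the one added later (Col28a1, Cry1, Dbp, Hsp90aa1, Hspa4l, Hsph1, Itga11, Nr1d1, Nr1d2, Rbm3 and Star), and 30 kept it with each of the 8 libraries left out in turn. The count of 184 higher and 195 lower genes became 9 and 16 with the 8 libraries alone, 38 and 50 when DRF ZT8 replicate 1 was also left out (chosen after seeing the data), and 283 and 123 with total reads as the scale. On the deposited values 110 genes were higher. Leaving out 1 of the 8 libraries gave 77 to 546 higher and 96 to 413 lower genes, the lowest without NRF ZT20 replicate 1 (higher) or replicate 3 (lower), and the highest without DRF ZT8 replicate 3. The 2321 genes whose difference differed between the fed and the fasted pair became 737 with the libraries compared alone, 1098 when DRF ZT8 replicate 1 was also left out, and 1544 to 3318 when 1 of the 8 libraries was left out, the lowest without DRF ZT8 replicate 1 and the highest without DRF ZT8 replicate 3. Fits of fewer libraries have fewer degrees of freedom, and the cause of the other shifts was not tested. The other alternatives moved these counts by less than 1.5 times. The replicate number was fitted as a block, with 224 higher and 247 lower genes, and all 50 named calls held. Deviations of same-numbered DRF ZT8 and NRF ZT20 libraries correlated at 0.26, -0.10, 0.32 and -0.26 across genes. The best match of 2 of the 4 DRF libraries had another number. With so few libraries this does not settle whether the numbers pair mice or mark a batch. With 4 mice per group, differences under about 0.27 log2 units for a typical gene lie within the 95% interval of 0.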
